A study of Homo sapiens with 6 samples.

Results

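Expression of 10 genes that carry out or limit the output of bone morphogenetic protein (BMP) and transforming growth factor beta (TGF-beta) signalling was examined in SW872 cells with and without Apatinib. The members were the genes of the deposited count table whose symbol was ID1, ID2, ID3, ID4, SMAD6, SMAD7, BMP4, BMPR2, SKIL or BAMBI. All 10 were found among the 57773 genes of the table, and all 10 were among the 16290 genes that had enough counts to be tested. SW872 is an established human liposarcoma cell line, and Apatinib is a small-molecule tyrosine kinase inhibitor directed mainly at the VEGF receptor KDR. The Apatinib group was cultured with 18 μM Apatinib for 24 h (n = 3), and the control group was untreated, with no vehicle named (n = 3). RNA of each whole culture was sequenced, and the total count per sample lay between 17043314 and 22067558.

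BMP and TGF-beta ligands bind paired serine/threonine kinase receptors, which phosphorylate receptor SMADs that enter the nucleus with SMAD4 and act on target genes. The ID genes are direct targets of the BMP branch, and their proteins bind E proteins and keep them from DNA. SMAD6, SMAD7, SKIL and BAMBI limit the pathway and are themselves induced by it, and in mesenchymal cells BMP and TGF-beta signals are known to steer the choice between fat, bone and fibroblast fates.

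Promoter windows of 300 bases, from 250 bases before to 50 bases after a start site, were taken from RefSeq (GRCh38.p14) for all 10 members. ID1, ID2, ID3, ID4, SMAD6, BMPR2, SKIL and BAMBI had 1 window each, and SMAD7 and BMP4 had 3 each, which gave 14 windows. Each window was searched on both strands for GGCGCC, the letters of GC-rich sites read by SMAD1 and SMAD5, for CAGAC, the SMAD box read by SMAD3 and SMAD4, for the palindrome GTCTAGAC, also read by SMAD3 and SMAD4, for CANNTG, the E-box of basic helix-loop-helix proteins, and for TGACG, the core of the cAMP response element. The 4 windows printed here are those of BMP4 (the most upstream start), the one member whose expression passed the test, of SKIL, the member with the lowest fold change, of SMAD6, which held the rare palindrome, and of ID3, an abundant ID gene. Capitals mark every match on either strand other than the E-box, and the sequences read 5′ to 3′ on the strand of the gene.
BMP4 (chr14:53955001-53955300, minus strand): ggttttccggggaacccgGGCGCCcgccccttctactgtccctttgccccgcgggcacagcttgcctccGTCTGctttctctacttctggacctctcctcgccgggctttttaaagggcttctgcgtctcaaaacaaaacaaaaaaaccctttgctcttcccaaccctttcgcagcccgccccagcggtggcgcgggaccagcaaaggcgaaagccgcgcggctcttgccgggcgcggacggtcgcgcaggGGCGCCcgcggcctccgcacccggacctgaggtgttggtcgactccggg
SKIL (chr3:170357465-170357764, plus strand): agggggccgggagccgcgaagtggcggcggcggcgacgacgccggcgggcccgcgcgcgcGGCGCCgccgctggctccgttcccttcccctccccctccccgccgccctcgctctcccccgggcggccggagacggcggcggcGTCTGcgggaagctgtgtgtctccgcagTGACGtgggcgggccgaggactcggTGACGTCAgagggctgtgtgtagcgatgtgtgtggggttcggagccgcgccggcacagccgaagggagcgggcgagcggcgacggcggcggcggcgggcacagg
SMAD6 (chr15:66701986-66702285, plus strand): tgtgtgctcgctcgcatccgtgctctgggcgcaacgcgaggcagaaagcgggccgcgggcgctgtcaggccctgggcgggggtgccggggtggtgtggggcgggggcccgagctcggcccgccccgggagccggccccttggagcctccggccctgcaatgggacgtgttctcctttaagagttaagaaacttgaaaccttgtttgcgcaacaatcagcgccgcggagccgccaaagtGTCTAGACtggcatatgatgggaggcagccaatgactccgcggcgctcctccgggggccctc
ID3 (chr1:23559452-23559751, minus strand): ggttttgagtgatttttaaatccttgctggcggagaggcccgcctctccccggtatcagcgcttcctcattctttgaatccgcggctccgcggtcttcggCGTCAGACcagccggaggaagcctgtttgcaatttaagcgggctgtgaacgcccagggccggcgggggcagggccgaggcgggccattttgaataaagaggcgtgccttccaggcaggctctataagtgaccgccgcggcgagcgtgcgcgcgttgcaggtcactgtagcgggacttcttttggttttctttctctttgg
In this BMP4 window, GGCGCC began 232 bases upstream and again 2 bases downstream of the start, and the SMAD box, read on the opposite strand as GTCTG, began 181 bases upstream. The SKIL window held GGCGCC 190 bases upstream, GTCTG 107 bases upstream, and 3 matches of TGACG, of which 2 overlapped within the run TGACGTCA that began 54 bases upstream. The SMAD6 window held GTCTAGAC 12 bases upstream, a word found in 71 of 35116 RefSeq windows of the same length (0.202%). In the ID3 window the SMAD box (147 bases upstream) and the cAMP response core, read as CGTCA (150 bases upstream), overlapped each other.

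Across the members, CAGAC was present in windows of 7 of 10 genes (10 of 14 windows) beside 45.3% of all RefSeq windows, and GGCGCC in windows of 4 of 10 genes (4 of 14 windows) beside 19.2%. The windows with GGCGCC were rich in GC, at 66% (BMP4), 76.7% (BMPR2), 79% (SKIL) and 80% (BAMBI). The median over all RefSeq windows was 58.7%. The part of GC content in these shares was not tested. The E-box letters were in 7 of 14 windows beside 68.7% of all windows, and TGACG in 2 of 14 beside 24.6%. BAMBI held 3 GGCGCC words between 209 and 181 bases upstream, and BMPR2 held 4 SMAD boxes. The ID1 window held none of the 5 words, which says only that these letters were not in those 300 bases. A match is a description of the letters and was not tested for binding.

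The closeness of the libraries was compared before the genes. For genes whose counts in a pair of libraries summed to 50 or more, the mean chi-square per gene was 2.27 between control 1 and control 2, where counting noise alone gives about 1, and 22.4 and 22.9 between control 3 and these libraries. Within the Apatinib group it was 18.2 for replicates 1 and 3, 34.3 for replicates 2 and 3 and 44.5 for replicates 1 and 2. Between the groups it ran from 26.5 (Apatinib 3 and control 3) to 78.4 (Apatinib 1 and control 2). On this measure Apatinib 3 thus lay nearer to control 3 than to Apatinib 2. Control 1 and control 2 thus differed by more than counting noise but by far less than any other pair, so they were kept as separate samples and results are also given with the pair summed or with 1 of them left out. The methods of the study name biological replicates without saying how they were separated, so p-values measure the spread between these samples, which may be technical.

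Of the 10 members, 1 passed the thresholds (adjusted p under 0.05 and an absolute log2 fold change above 0.5), and it was higher with Apatinib. Over all 16290 tested genes 11.5% passed, 5.97% higher and 5.48% lower, so 1 of 10 members lay near the share of all genes. With control 1 and control 2 summed, 1.75% of 16731 tested genes and 0 of 10 members passed, and without control 1 it was 1.65% of 16708 genes and 0 members. In both of these edgeR fits 1 member, BMP4, had an unadjusted p under 0.05. The members' median log2 fold change was 0.17, with 6 above 0 and 4 below, beside a median of 0.0028 over all tested genes. The groups did not overlap in CPM (counts scaled to library size with TMM factors) for 1 of 10 members, beside 33.2% of tested genes. Because whole cultures were measured, fewer cells of a type and less RNA per cell cannot be told apart for any of these genes.

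**Figure D1:**
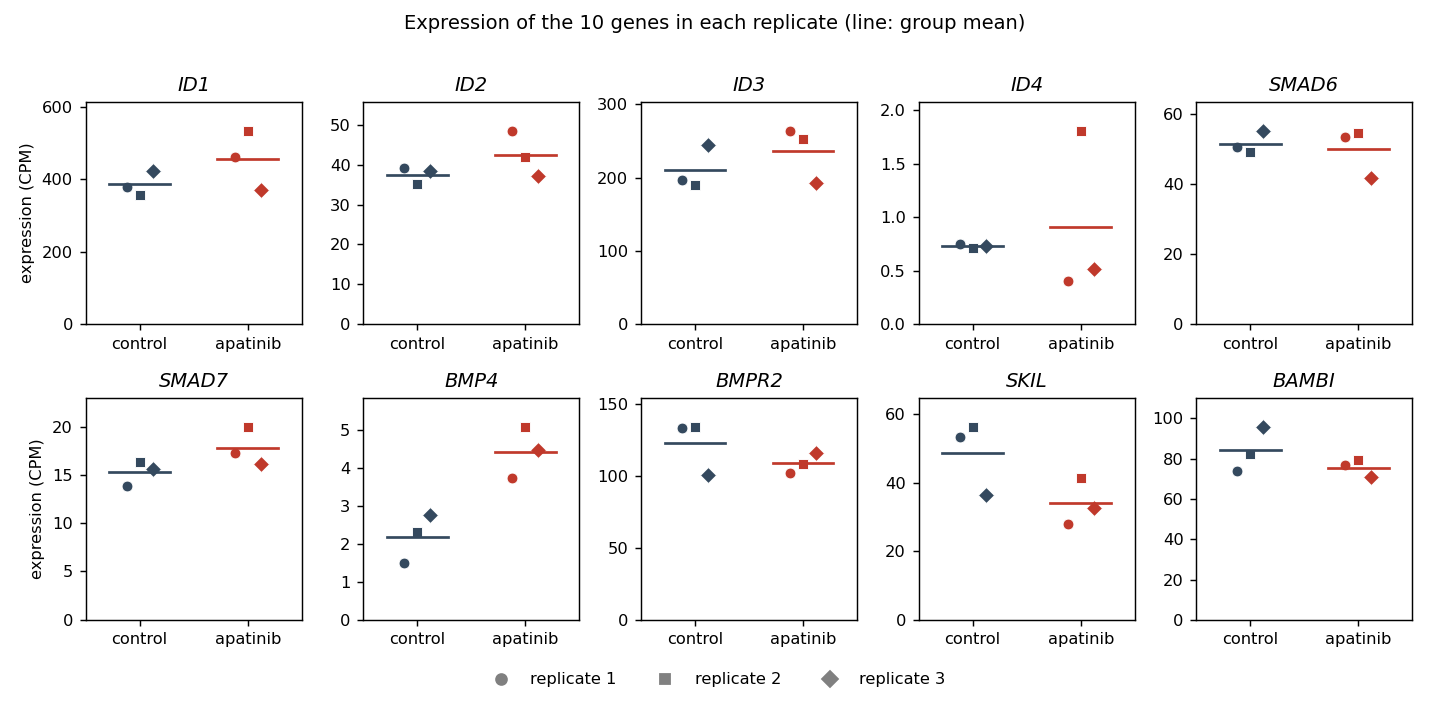
Expression of each of the 10 genes in CPM (vertical axis, linear from 0) in the 3 control and 3 Apatinib replicates, with a line at the group mean. The BMP4 values of the Apatinib group lie above all control values, and the groups overlap for the other 9 genes.

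BMP4, the secreted ligand among the members, had 64, 90 and 78 counts in Apatinib replicates 1, 2 and 3 and 26, 42 and 60 in control replicates 1, 2 and 3. On the CPM scale the Apatinib replicates had 3.72, 5.08 and 4.46 and the control replicates 1.5, 2.31 and 2.75. The lowest Apatinib sample was thus above the highest control sample, with control 1 the lowest of all 6. BMP4 was 2.0-fold higher with Apatinib (95% interval 1.35 to 2.97), a log2 fold change of 1.00 (SE 0.258; adjusted p = 0.0303, edgeR quasi-likelihood test, Benjamini-Hochberg adjusted over all tested genes). Per length the level was also higher in every Apatinib sample, at 1.65 ± 0.240 FPKM (fragments per kilobase, scaled to library size; mean ± SD, n = 3) against 0.948 ± 0.187 FPKM, which gave a log2 ratio of the means of 0.80. The call did not hold in every setting. With control 1 and control 2 summed the log2 fold change was 0.94 (adjusted p = 0.0978), without control 1 it was 0.80 (adjusted p = 0.135) and without control 2 it was 1.04 (adjusted p = 0.105) in the edgeR quasi-likelihood test, Benjamini-Hochberg adjusted. Without Apatinib 2 or Apatinib 3 the log2 fold change was 0.89 and 1.00 (adjusted p = 0.0633 and 0.0572) in the same edgeR test. The limma fits on log2(FPKM + 1) and on log2(FPKM + 0.1) gave 0.45 and 0.75 (adjusted p = 0.0842 and 0.0899 in limma). BMP4 kept its direction in all 17 alternative settings and passed both thresholds in 10 of them.

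BMPR2, the type II receptor for BMP ligands, had 102, 108 and 116 CPM in Apatinib replicates 1, 2 and 3 and 133, 134 and 101 CPM in control replicates 1, 2 and 3. Control 1 and control 2 were the highest samples, and control 3 was the lowest of all 6, so the groups overlapped. The log2 fold change was -0.17 (95% interval -0.47 to 0.12; adjusted p = 0.417, edgeR quasi-likelihood test, Benjamini-Hochberg adjusted). The transcripts of BMPR2 had one of the lowest GC contents of the members (37.5%), and when the part of each sample's deviations that follows GC content was removed by an offset, the log2 fold change became 0.28 (adjusted p = 0.0609 in the same test). Its direction therefore depended on this setting. With 1 replicate left out it stayed below 0, from -0.30 without control 3 (unadjusted p = 0.0493; adjusted p = 0.157, edgeR quasi-likelihood test, Benjamini-Hochberg adjusted) to -0.11 without control 2.

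SKIL, also called SnoN, is a nuclear corepressor that binds SMAD complexes. It had 27.9, 41.5 and 32.8 CPM in Apatinib replicates 1, 2 and 3 and 53.3, 56.4 and 36.6 CPM in control replicates 1, 2 and 3. Control 1 and control 2 were above every Apatinib sample, whereas control 3 lay below Apatinib 2. The log2 fold change of -0.52 (95% interval -0.93 to -0.10) had an unadjusted p of 0.0189 and an adjusted p of 0.0916 in the edgeR quasi-likelihood test, Benjamini-Hochberg adjusted, so SKIL did not pass. The result moved with single libraries and with GC content. Without control 3 it was -0.68 (adjusted p = 0.0157) and without Apatinib 2 it was -0.67 (adjusted p = 0.0498), and both passed in the edgeR quasi-likelihood test, Benjamini-Hochberg adjusted. Without Apatinib 1, Apatinib 3, control 1 or control 2 it was -0.39, -0.49, -0.45 and -0.40, and with control 1 and control 2 summed -0.43, each with an unadjusted p above 0.05 in edgeR. With the GC offset it was -0.041 (adjusted p = 0.856, the same edgeR test), and SKIL had the lowest GC content of the members (37.2%). The part of GC content in these values was not tested further.

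**Figure D2:**
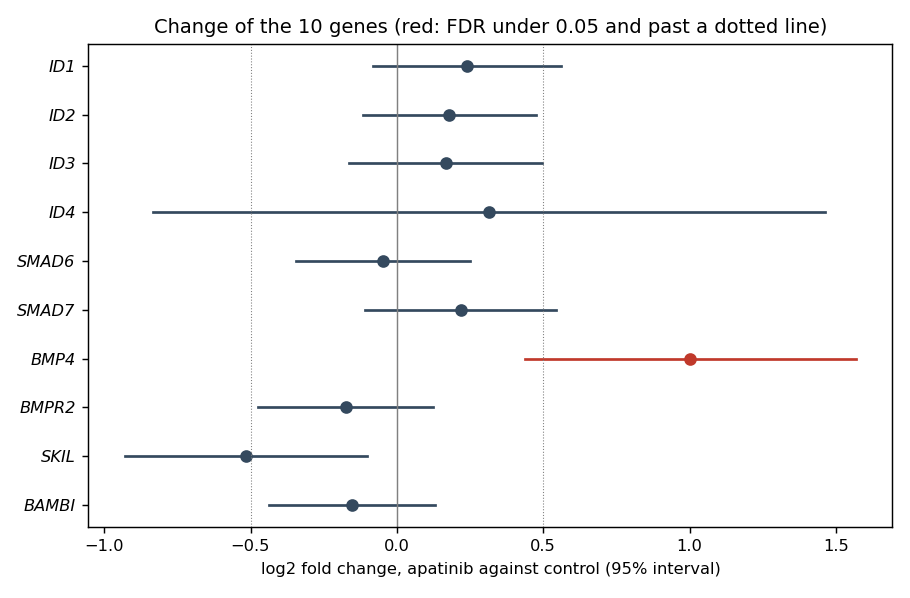
Log2 fold change of each of the 10 genes, Apatinib against control (horizontal axis), as points with 95% intervals, and dotted lines at -0.5 and 0.5. BMP4 (1.00, interval 0.44 to 1.57) passed the thresholds, the interval of SKIL (-0.93 to -0.10) lay below 0 without an adjusted p under 0.05, and the intervals of the other 8 genes included 0.

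SMAD6 and SMAD7 are the inhibitory SMADs, which block receptor SMADs at the receptor and recruit ubiquitin ligases to it. SMAD6, the more selective for the BMP branch, had 53.4, 54.5 and 41.7 CPM in Apatinib replicates 1, 2 and 3 and 50.6, 49.0 and 55.1 CPM in control replicates 1, 2 and 3. Apatinib 3 was the lowest sample and the other 5 lay close together. Its log2 fold change was -0.048 (95% interval -0.35 to 0.25), and it lay above 0 without Apatinib 3 (0.068) or without control 3 (0.0050). With the GC offset it was -0.24 (unadjusted p = 0.0446; adjusted p = 0.153, edgeR quasi-likelihood test, Benjamini-Hochberg adjusted). SMAD7 had 17.2, 20 and 16.1 CPM in Apatinib replicates 1, 2 and 3 and 13.9, 16.3 and 15.6 CPM in control replicates 1, 2 and 3. Control 2 lay just above Apatinib 3, so the groups overlapped in CPM, and they did not overlap in FPKM (3.78 to 4.81 against 3.25 to 3.68). The log2 fold change of SMAD7 was 0.22 (95% interval -0.11 to 0.54; adjusted p = 0.350, edgeR quasi-likelihood test, Benjamini-Hochberg adjusted), 0.069 with the GC offset, 0.13 without Apatinib 2, 0.15 without control 1 and 0.29 without Apatinib 3.

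BAMBI, a transmembrane pseudoreceptor that lacks the kinase domain and takes the place of a type I receptor, ranged from 70.8 to 79.2 CPM with Apatinib and from 74.0 to 95.9 CPM in the control group. Control 3 was the highest sample, and the other controls lay within or close to the Apatinib range. Its log2 fold change was -0.15 (95% interval -0.44 to 0.13), -0.048 without control 3, -0.24 without control 1 and -0.25 with the GC offset (unadjusted p = 0.0288; adjusted p = 0.116, edgeR quasi-likelihood test, Benjamini-Hochberg adjusted).

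The ID genes encode helix-loop-helix proteins without a DNA-binding region. ID1 had 7954, 9458 and 6496 counts in Apatinib replicates 1, 2 and 3 and 6556, 6489 and 9274 in control replicates 1, 2 and 3, or 463, 534 and 372 CPM against 378, 357 and 425 CPM. Apatinib 1 and Apatinib 2 were above every control sample, but Apatinib 3 was below control 1 and control 3. The group means were 456 ± 81.2 CPM (Apatinib) and 387 ± 34.7 CPM (control; SD, n = 3), a log2 fold change of 0.24 (95% interval -0.083 to 0.56; adjusted p = 0.297, edgeR quasi-likelihood test, Benjamini-Hochberg adjusted). ID3 had 263, 252 and 193 CPM in Apatinib replicates 1, 2 and 3 against 197, 189 and 245 CPM in control replicates 1, 2 and 3. Apatinib 3 was again among the low samples and control 3 among the high ones. ID2 had 48.5, 42.0 and 37.1 CPM in Apatinib replicates 1, 2 and 3 against 39.1, 35.1 and 38.4 CPM in control replicates 1, 2 and 3, and the groups overlapped through Apatinib 3. The log2 fold changes of ID3 and ID2 were 0.17 (95% interval -0.16 to 0.50) and 0.18 (95% interval -0.12 to 0.47).

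ID4 was scarce, with 7, 32 and 9 counts in Apatinib replicates 1, 2 and 3 and 13, 13 and 16 in control replicates 1, 2 and 3. A single library, Apatinib 2, was above all controls, and Apatinib 1 and Apatinib 3 were below them. The log2 fold change was 0.32 with a wide interval (-0.83 to 1.46), and it was -0.65 without Apatinib 2. The Apatinib group thus spread far more (0.910 ± 0.778 CPM) than the control group (0.733 ± 0.0178 CPM; SD, n = 3).

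All 4 ID genes thus had a log2 fold change above 0 with all samples (ID4 not without Apatinib 2), and none passed the thresholds in edgeR's quasi-likelihood test, where 0 of 4 had an unadjusted p under 0.05. DESeq2 and limma did not call ID1, ID2 or ID3 either. For ID4, DESeq2 gave no adjusted p, and limma was not run because its mean FPKM was under 0.5. The values moved with single libraries, and those of ID1 and ID3 also with GC content. With the GC offset the log2 fold changes of ID1, ID2, ID3 and ID4 were 0.071, 0.13, 0.011 and 0.30, and ID1 was at 0.11 without Apatinib 2 and ID2 at 0.079 and ID3 at 0.083 without Apatinib 1. Without Apatinib 3 these 3 genes were higher, at 0.37 for ID1 (unadjusted p = 0.0260; adjusted p = 0.109, edgeR quasi-likelihood test, Benjamini-Hochberg adjusted), 0.27 for ID2 and 0.30 for ID3. The summed FPKM of the 4 ID genes was 485, 568 and 399 in Apatinib replicates 1, 2 and 3 and 415, 375 and 445 in control replicates 1, 2 and 3. The sums of Apatinib 1 and Apatinib 2 exceeded every control sum, and that of Apatinib 3 did not. ID1 supplied 65.1% to 69.6% of that sum in the 6 samples and ID3 26.8% to 30.7%, whereas ID4 supplied at most 0.0976%. The share of ID1 averaged 67.2 ± 2.26% for Apatinib and 66.0 ± 0.683% for control samples (SD, n = 3), a difference within the spread.

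**Figure D3:**
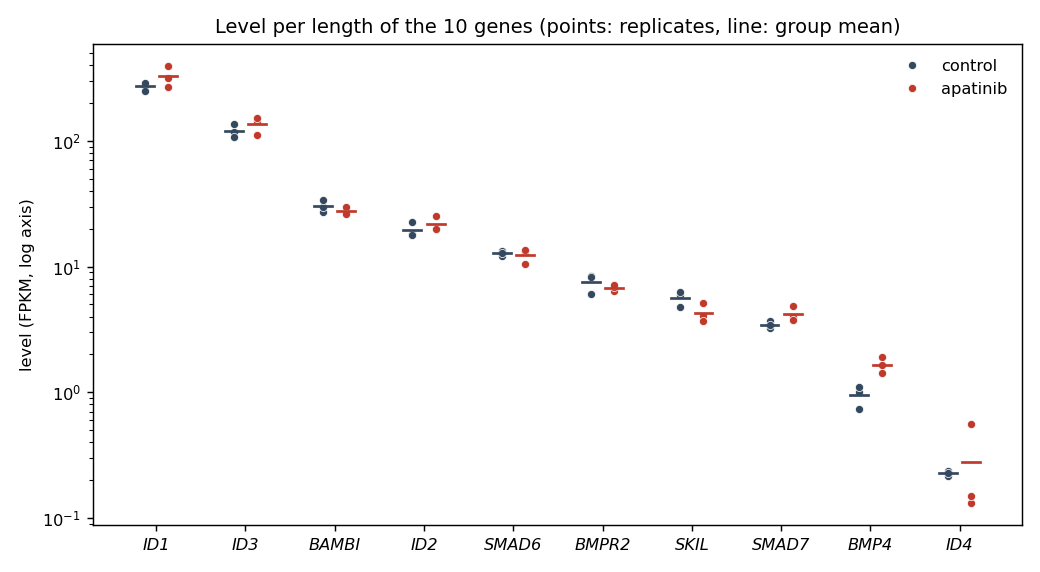
Level of the 10 genes in FPKM (vertical log axis), with points for replicates and lines for group means, in the control group and the Apatinib group, ordered by the control mean. The order runs from ID1 (271 FPKM in the control group) to ID4 (0.226 FPKM) and is the same in both groups.

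Levels were compared between genes per length. In the control group the mean FPKM fell in the order ID1 (271 ± 20.6), ID3 (120.2 ± 15.0), BAMBI (30.3 ± 3.53), ID2 (19.6 ± 2.72), SMAD6 (12.7 ± 0.634), BMPR2 (7.57 ± 1.34), SKIL (5.65 ± 0.791), SMAD7 (3.46 ± 0.213), BMP4 (0.948 ± 0.187) and ID4 (0.226 ± 0.0109), each as mean ± SD with n = 3. The ranges of the control replicates overlapped for 1 pair of neighbours in this order, BMPR2 and SKIL. The order was the same with Apatinib, where SKIL (3.70 to 5.13 FPKM) and SMAD7 (3.78 to 4.81 FPKM) were the overlapping pair. BMP4 stayed ninth of the 10 genes at its higher level with Apatinib.

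The 5 tested genes whose profile over the 6 samples lay nearest to that of ID1 were TBL2, TRAF4, PDGFRB, HSF1 and CYB5D2. The measure was the root mean square difference of log2 CPM centred on the control mean, and it ran from 0.0187 for TBL2 to 0.0374 for CYB5D2. For ID1 that profile was 0.26, 0.47 and -0.053 in Apatinib replicates 1, 2 and 3 and -0.027, -0.11 and 0.14 in control replicates 1, 2 and 3.

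The members were then placed among the other genes of the pathway. The lists of ligands, receptors, antagonists, SMADs, inhibitors, targets and E proteins held 105 genes of the count table, the members included, and 73 of them had enough counts to be tested. Of these, 9 of 73 passed the thresholds, 8 of them higher with Apatinib and 1 of them lower. Their median log2 fold change was 0.14, beside 11.5% called and a median of 0.0028 for all tested genes. Without the members it was 8 of 63.

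BMP4 was the 1 of 4 tested BMP and GDF ligands that passed, and BMP2 followed at 0.31 on the log2 scale (0.19 to 0.40 with 1 replicate left out) without passing. Among 7 tested TGF-beta, activin and nodal ligands none passed in the reported fit of edgeR's quasi-likelihood test or in DESeq2. Of these ligands, 3 had an unadjusted p under 0.05 in the edgeR test. The smallest p-values were those of TGFB2 (log2 fold change 0.39) and INHBE (2.08), and INHBE was 0.29 without Apatinib 2. INHBE passed in 3 of 17 alternative settings: with no filter beyond a total count of 1 (2.09), with the replicate block (1.51) and without Apatinib 3 (2.58). TGFB2 passed with the GC offset alone (0.77) and with the GC offset and the replicate block (0.77), and in none of the other 15 alternative settings. The third of these ligands, INHBA, named after its values were seen, was at -0.95 on the log2 scale, its Apatinib samples (0.931 to 4.69 CPM) all below its controls (4.73 to 5.39 CPM). Its value lay between -1.72 (without Apatinib 2) and -0.56 (without Apatinib 1) with 1 replicate left out, and it passed in 4 of 17 alternative settings. None of 12 tested receptors passed in the reported edgeR fit or in DESeq2, and 3 had an unadjusted p under 0.05 in edgeR. Those 3 were TGFBR1 (-0.45 on the log2 scale), RGMB, a co-receptor (0.31), and BMPR1A (-0.32, and -0.11 with the GC offset). The median log2 fold change of the 12 receptors was -0.093, with BMPR2 at -0.17. TGFBR1 was at -0.10 with the GC offset, and it passed without Apatinib 3 (-0.61) and without control 3 (-0.52). FST and FSTL3, secreted proteins that trap activins and some BMPs, rose by 1.39 and 0.85 on the log2 scale and were the 2 of 7 tested antagonists that passed.

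SMAD5, a receptor SMAD of the BMP branch, fell by 0.54 on the log2 scale and was the 1 of 6 signal-transducing SMADs that passed (adjusted p = 0.0370, edgeR quasi-likelihood test, Benjamini-Hochberg adjusted). It had 174, 211 and 218 CPM in Apatinib replicates 1, 2 and 3 and 318, 325 and 237 CPM in control replicates 1, 2 and 3, so that control 3 lay nearest to the Apatinib group, as it did for SKIL. With the GC offset its log2 fold change was -0.23 and it did not pass, nor did it without Apatinib 1, Apatinib 2, control 1 or control 2. Both limma fits also did not call it (-0.51 and -0.53, adjusted p = 0.0947 and 0.0970 in limma, Benjamini-Hochberg). SMAD5 passed in 8 of 17 alternative settings. None of the 10 intracellular inhibitors, which include SMAD6, SMAD7, SKIL and BAMBI, passed in the reported fit of edgeR's quasi-likelihood test or in DESeq2. Of these, 3 had an unadjusted p under 0.05 in the edgeR test (SKIL, TGIF1 and TGIF2). Their median log2 fold change over all 10 was 0.0025, with TGIF2 at 0.32 and TGIF1 at 0.50. TGIF1 passed in 1 of 17 alternative settings, with no filter beyond a total count of 1 (0.51), and was at 0.14 without Apatinib 2. SMAD9, a receptor SMAD that is also a BMP target, had a log2 fold change of 0.32 (0.15 to 0.52 with 1 replicate left out).

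Of 15 tested BMP-SMAD target genes, which include the ID genes, SMAD6, SMAD7 and BAMBI, the 2 that passed were the homeobox genes MSX2 (0.64 on the log2 scale) and DLX3 (0.74), and the median of the list was 0.18. MSX2 had 22.1, 25.7 and 21.4 CPM in Apatinib replicates 1, 2 and 3 and 12.9, 16.6 and 15.0 CPM in control replicates 1, 2 and 3, without overlap. DLX3 missed the adjusted threshold without Apatinib 1 or Apatinib 2, with the GC offset and in both limma fits (adjusted p = 0.101 and 0.106 in limma, Benjamini-Hochberg). It passed in 8 of 17 alternative settings. Of 16 tested TGF-beta-SMAD target genes, which include SMAD7 and SKIL, 3 passed, and the median of the list was 0.38.

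The 3 were CTGF (2.22 on the log2 scale), SNAI2 (1.08) and LTBP2 (0.83), which encode a matricellular protein, a transcription factor and an extracellular matrix protein of the latent TGF-beta binding protein family. CTGF, which is also a known target of YAP, had 38.1, 41.0 and 41.3 CPM in Apatinib replicates 1, 2 and 3 and 8.02, 10.1 and 7.83 CPM in control replicates 1, 2 and 3. SNAI2 was highest in Apatinib 2 (73.8 CPM), and without that library its log2 fold change was 0.52. DESeq2 and both limma fits did not call SNAI2 (adjusted p = 0.0682 in DESeq2 and 0.117 and 0.115 in limma, Benjamini-Hochberg). CTGF, LTBP2 and FST passed both thresholds in all 17 alternative settings. The other 6 called pathway genes (BMP4, FSTL3, MSX2, DLX3, SNAI2 and SMAD5) each missed the adjusted threshold without control 1, without control 2 and with control 1 and control 2 summed. Of the 3 tested E proteins, the partners bound by ID proteins, none passed in the reported fit of edgeR's quasi-likelihood test. In this edgeR test TCF4 was at -0.51 (unadjusted p = 0.00669, adjusted p = 0.0511, Benjamini-Hochberg) and TCF12 at -0.28 (-0.44 to -0.13 with 1 replicate left out). TCF3, the remaining E protein, lay the other way at 0.14 (unadjusted p = 0.310 in the same edgeR test). DESeq2 called 1 of these 3 genes, TCF4. In edgeR TCF4 also passed with RLE factors (-0.52), without Apatinib 2 (-0.59) and without control 3 (-0.63), so it passed in 4 of 17 alternative settings. With the GC offset it was at -0.34, and in the 2 limma fits at -0.23 and -0.33, without passing.

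**Figure D4:**
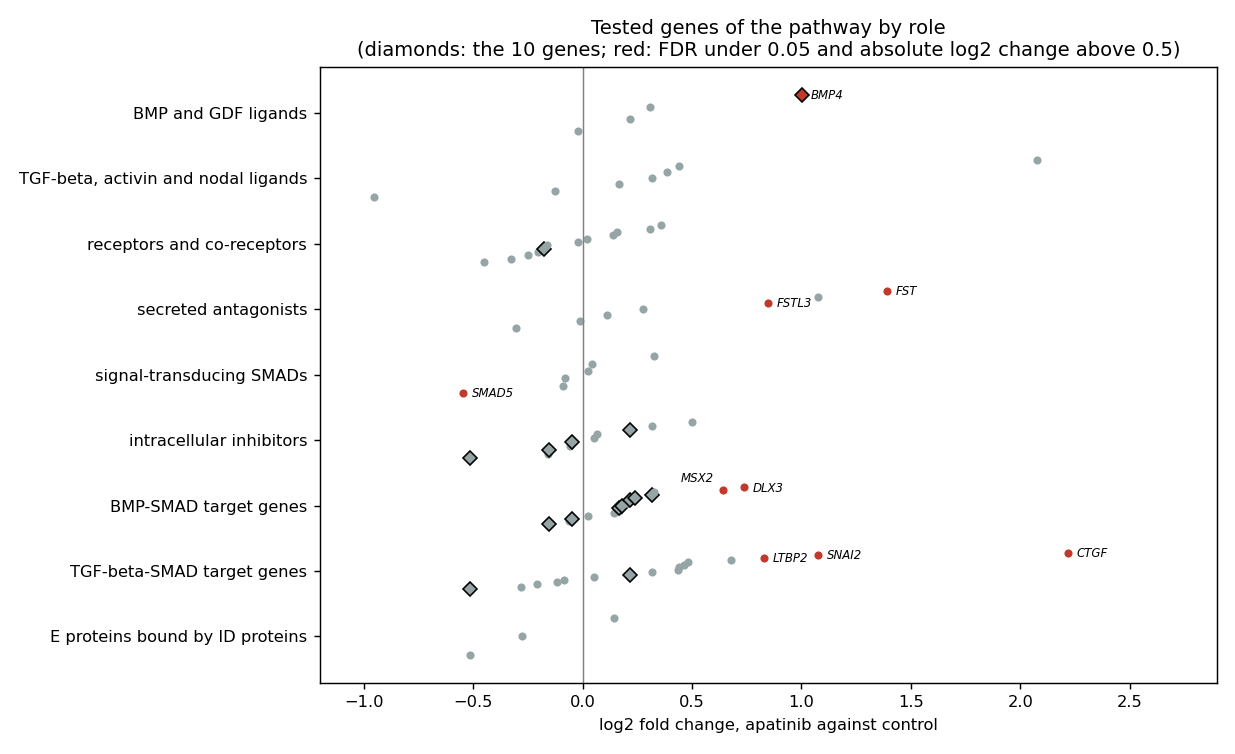
Log2 fold change, Apatinib against control (horizontal axis), of the 73 tested pathway genes by role, with the 10 members as diamonds and genes past the thresholds in red; a gene with 2 roles is drawn in both. BMP4 is the only red diamond, and 3 of the 16 TGF-beta-SMAD target genes are red on the higher side.

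The label of the cells was compared with marker genes. All 9 mesenchymal markers had a mean FPKM above 1, led by VIM (1035 FPKM), whereas 2 of 8 adipocyte markers did, with PPARG the most abundant (21.7 FPKM) and CEBPA, FABP4 and ADIPOQ at 0 counts in every sample. FABP4 and ADIPOQ were also at 0 FPKM, whereas CEBPA, whose exons overlap genes on the opposite strand, had 0.128 FPKM. Of the endothelial markers found, 1 of 6 was above 1 FPKM (TEK, 1.80 FPKM) and EMCN was at 0 counts. KDR, the receptor at which Apatinib is mainly directed, was scarce. It had 4, 11 and 6 counts in Apatinib replicates 1, 2 and 3 and 9, 8 and 4 in control replicates 1, 2 and 3. The epithelial markers were led by KRT18 (157 FPKM), whose exons overlap KRT8 on the opposite strand, and EPCAM and CDH1 had at most 7 counts in any sample. Of 7 leukocyte markers 2 were above 1 FPKM, and PTPRC and LYZ were at 0 counts.

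The summed FPKM of the mesenchymal markers was 1924, 1768 and 1739 in Apatinib replicates 1, 2 and 3 and 1475, 1405 and 1549 in control replicates 1, 2 and 3, without overlap. Among single tested genes, 33.2% did not overlap in CPM. VIM (1133 FPKM with Apatinib and 936 FPKM without) and CD44 (372 and 267 FPKM) made up most of it, and the means of COL1A1 (3.88 and 4.20 FPKM) and ENG (161 and 163 FPKM) were not higher with Apatinib. The summed FPKM of the leukocyte markers was 13.4, 10.1 and 7.81 against 5.11, 3.83 and 4.79 in the same order, also without overlap. The summed FPKM of the epithelial markers, 2 of 7 of which were above 1 FPKM, was 222, 221 and 186 against 156, 155 and 186, with Apatinib 3 and control 3 nearly equal. That of the adipocyte markers was 23.1, 32.3 and 24.6 against 24.4, 21.9 and 21.9, with overlap. Among these, LPL had 246, 416 and 298 counts against 195, 198 and 187 (means of 3.42 and 1.90 FPKM), and the means of PPARG were 22.8 and 20.5 FPKM. The most abundant leukocyte marker was CD68 (5.85 FPKM), which had at most 1 count in any sample and whose exons overlap another gene on the same strand, and its mean was 9.05 FPKM with Apatinib and 2.65 FPKM without. CD14, the other leukocyte marker above 1 FPKM, lay the other way, with 65, 68 and 40 counts in Apatinib replicates 1, 2 and 3 and 73, 94 and 107 in control replicates 1, 2 and 3. The part of these marker lists in the BMP4 result was not tested.

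**Figure D5:**
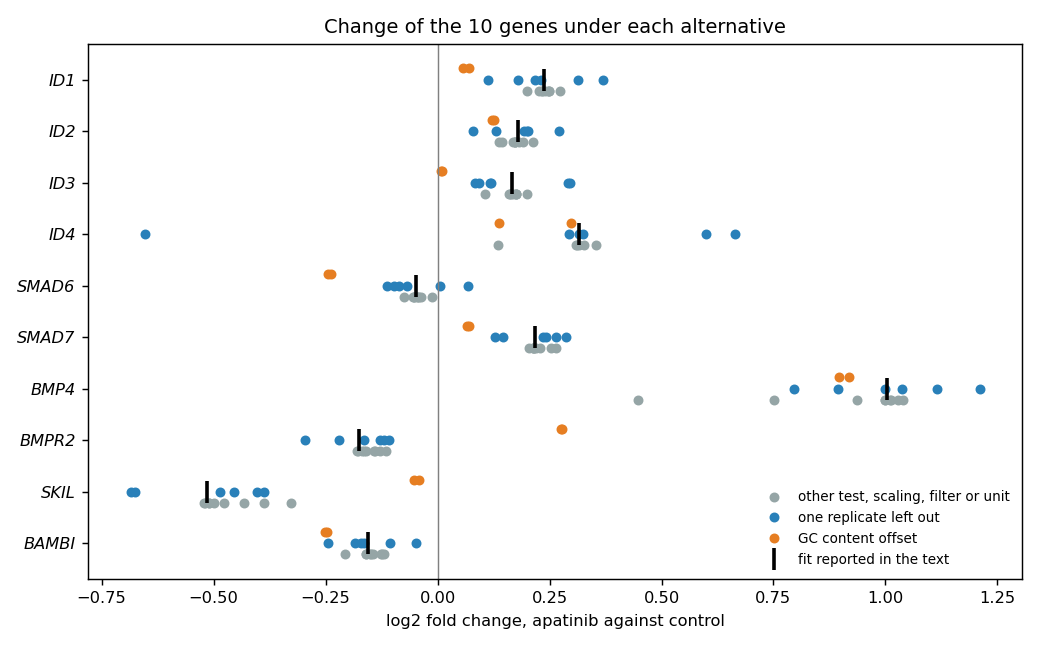
Log2 fold change of the 10 genes (horizontal axis) in the reported fit (black line) and under each alternative, with points for other tests, scalings, filters or units, for 1 replicate left out and for a GC content offset. BMP4 stays above 0 at every point, BMPR2 lies above 0 with the GC offset (0.28), and ID4 lies at -0.65 without Apatinib 2.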

How the data were processed

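The authors deposited a table of counts per gene, whole numbers that were not normalized, and FPKM values for each of the 6 samples. The submitters' processing notes name CASAVA, STAR 2.7.1a and the build hg19, and the study's methods name DESeq2 for the comparison of groups. The counting program, the annotation and whether strand was used are not given in the sources used here. Reads where ID2 and its antisense gene ID2-AS1 overlap may therefore have been counted for ID2 or left out, which was not tested. The same limit holds for the called genes SMAD5, CTGF and LTBP2 and for TCF4 and RGMB, whose exons overlap genes on the opposite strand. Exons of SMAD5, TGFB2 and TGIF2 also overlap genes on the same strand. The FPKM values of Apatinib replicate 1 held 1 extra column of per-sample values, whose heading was a control label, and it was not used. Groups were taken from the labels. Counts were tested in R 4.3.3 with edgeR 4.0.16 (TMM factors, filterByExpr, glmQLFit and glmQLFTest), and p-values were adjusted by Benjamini-Hochberg over 16290 genes. A gene passed at an adjusted p under 0.05 and an absolute log2 fold change above 0.5. Standard errors and 95% intervals came from the F statistic and its degrees of freedom. The log2 CPM profiles used a prior count of 2. The test was checked on simulated data.

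Alternatives were DESeq2 1.42.0, RLE and upper-quartile factors, no filter beyond a total count of 1, at least 10 counts in every sample, a replicate block, control 1 and control 2 summed, limma 3.58.1 on log2 FPKM with a pseudocount of 1 or 0.1 (genes with a mean FPKM above 0.5), a GC content offset (GENCODE transcripts, loess span 0.3, 97.1% of tested genes) with and without the block, and each replicate left out. The genes named were the 10 members, the pathway genes that passed, the 2 tested genes with the smallest p in each pathway list, the most abundant gene of each marker list and the 5 genes nearest to ID1. Other genes, such as marker genes at 0 counts, were named after their values were seen. The members and lists were chosen with earlier results of these data known. One endothelial marker was not matched by name and was left out. Protein sequences of the members were not analysed here. One gene was left out of the pathway lists after the analysis, for a reason other than its values, so the counts of pathway genes are without it and it is not reported here.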

Additional observations from a re-analysis of the deposited data

How the results depend on the processing

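Over the 10 members and all alternatives, 154 results kept their side of the thresholds and either their direction or a value within the control SD, 7 lost the call of BMP4, 2 gained a call for SKIL and 4 turned in sign by more than that SD. ID4 was below the filter of 3 alternatives. Limma on log2(FPKM + 1) and on log2(FPKM + 0.1) called 796 and 810 genes, 0 and 0 members and 5 and 5 pathway genes. With control 1 and control 2 summed, 292 genes, 0 members and 3 pathway genes passed. With no filter beyond a total count of 1, 14 pathway genes passed. With limma and with the summed controls 1 member, BMP4, had an unadjusted p under 0.05, and DESeq2 called 1 member. With 1 replicate left out, 275 to 2594 genes, 0 to 2 members and 3 to 13 pathway genes passed, against 1866, 1 and 9 with all samples. The lowest counts of genes were 275 without control 1, 300 without control 2 and 795 without Apatinib 1, and the highest were 2030 without Apatinib 3 and 2594 without control 3. BMPR2 turned to 0.28 with the GC offset and to 0.28 with the GC offset and the replicate block. With the GC offset 4 members had an unadjusted p under 0.05 (BMPR2, BAMBI, BMP4 and SMAD6), and SMAD6 was at -0.24 with and without the block. ID4 ranged from -0.65 to 0.66 and SMAD6 from -0.11 to 0.068 with 1 replicate left out. The cause was not tested. ID4 and BMP4 had the fewest counts of the members, which limits their precision.

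No pairing of the samples by replicate number was seen in the values, which do not show how the cultures were handled. Deviations of same-numbered samples correlated at -0.259, 0.0808 and -0.22 over genes. The highest correlation between the groups was 0.387, for Apatinib 1 and control 3. With the replicate block 2215 genes, 1 member and 11 pathway genes passed.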
